A study of Mus musculus with 10 samples.

Results

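The nuclear-encoded oxidative phosphorylation subunits are the building blocks of the 5 protein complexes of the inner mitochondrial membrane. They were chosen here by gene symbol alone: names starting with Ndufa, Ndufb, Ndufc, Ndufs, Ndufv, Uqcr or Atp5, the genes Sdha to Sdhd, and Cox4 to Cox8 followed by a, b, c or i. The rule left out pseudogene names and the Ndufaf assembly factors, and it found 92 genes among the 49164 genes with values. By name, 43 belong to complex I, 4 to complex II, 8 to complex III, 19 to complex IV and 18 to complex V. Of the 92, 79 had enough reads to be tested and 13 did not. Those 13 were Ndufa11b, Ndufb11b, Ndufb4c, Ndufs6b, Cox4i2, Cox6a2, Cox6b2, Cox6c2, Cox7a1, Cox7b2, Cox8b, Cox8c and a further row named Atp5o.

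The samples were sheets of mouse gingival epithelium, freed with the protease Dispase and divided into the buccal side (facing the cheek) and the palatal side (facing the palate), with 5 RNA libraries from each. No treatment, transgene or deletion is named for either side. For strain, age, sex and genotype the sources used here give nothing. Neither is it stated that the 5 libraries of a side came from separate animals, so the p-values measure the spread between these libraries, which may be technical. The series' design text speaks of samples pooled from several mice of differing microbial status, a comparison not analysed here, and whether these libraries were pooled is not stated.

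Oxidative phosphorylation turns the energy of NADH and succinate into ATP. Complexes I and II take electrons from these fuels, complex III passes them on to cytochrome c, and complex IV hands them to oxygen. Complexes I, III and IV pump protons as they do so, and complex V, the ATP synthase, uses the returning protons to make ATP. Complexes I, III, IV and V also contain subunits made from mitochondrial DNA, whereas complex II is wholly nuclear-encoded. Several complex IV subunits have paired genes, with a widely expressed form and another found mainly in muscle, testis or lung. Stratified oral epithelium lives partly from glycolysis, and mitochondria are lost as its keratinocytes cornify.

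Many nuclear OXPHOS promoters are known to carry binding sequences for NRF1 and for ETS factors such as GABP. RefSeq promoters (build GRCm38.p6, 250 bases before to 50 after the first listed start) were found for 66 of the 79 tested genes. The 4 shown here are those of Ndufa4, the subunit gene with the largest difference between the sides, and of 3 genes that hold the longer NRF1 sequence, from complexes I, IV and V. Each is the 180 bases before the start, 5′ to 3′ on the gene's strand. The run of 10 capitals marks the NRF1 sequence, which reads the same on both strands, and CTTCCGG is the reverse complement of the ETS sequence CCGGAAG.
Ndufa4 (chr6:11907451-11907630, minus strand): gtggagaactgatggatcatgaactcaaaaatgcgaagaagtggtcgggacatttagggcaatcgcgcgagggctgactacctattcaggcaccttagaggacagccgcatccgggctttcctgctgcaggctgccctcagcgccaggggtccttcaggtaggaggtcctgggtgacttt
Ndufa11 (chr17:56717582-56717761, plus strand): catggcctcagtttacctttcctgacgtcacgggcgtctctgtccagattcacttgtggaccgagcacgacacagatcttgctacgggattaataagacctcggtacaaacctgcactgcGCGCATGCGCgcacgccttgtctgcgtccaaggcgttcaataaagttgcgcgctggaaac
Cox6a1 (chr5:115348959-115349138, minus strand): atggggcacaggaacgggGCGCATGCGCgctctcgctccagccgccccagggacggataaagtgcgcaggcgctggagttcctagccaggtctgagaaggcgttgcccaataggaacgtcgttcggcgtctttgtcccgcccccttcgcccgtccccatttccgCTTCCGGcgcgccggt
Atp5g2 (chr15:102671048-102671227, minus strand): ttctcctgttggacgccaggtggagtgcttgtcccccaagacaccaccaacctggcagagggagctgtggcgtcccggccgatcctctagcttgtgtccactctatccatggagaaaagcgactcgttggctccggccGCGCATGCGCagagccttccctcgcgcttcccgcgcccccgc
The NRF1 sequence began 60 bases before the start in Ndufa11, 162 in Cox6a1 and 42 in Atp5g2, and the ETS sequence 16 bases before it in Cox6a1. The Ndufa4 window held none of the searched letters.

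Both strands of the 300-base promoters were searched. The 10-base NRF1 sequence stood in 5 of the 66 promoters (7.58%), those of Ndufa11, Uqcrc1, Cox6a1, Atp5g2 and Atp5k, against 2.0% of the 10606 promoters of tested genes and 0.977% of all 27025. Its shorter form GCATGCGC, which lies within the longer one, stood in 10 (15.2%, against 5.31% and 2.8%). CCGGAAG stood in 16 (24.2%, against 17.8% and 9.12%), and AAGATGGC, the YY1 sequence, in 9 (13.6%, against 4.62% and 2.88%). The ERR sequence TCAAGGTCA was found in 2 (3.03%, against 0.273% and 0.407%). Among the 13 genes that were lower in palatal epithelium, 2 promoters held the long NRF1 sequence, 3 the ETS sequence and 2 the YY1 sequence. The 52 promoters of genes that did not pass the test held them in 3, 13 and 7 cases. The shorter NRF1 form stood in 2 of the 13 and 8 of the 52, which is 15.4% of each.

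Levels are given as counts per 1000000 reads (CPM), that is, the reads on a gene scaled to a common library size after TMM scaling, which corrects the libraries for differences in RNA composition. Library totals ran from 25868777 to 37234192 reads on genes. Differences are log2 fold changes, palatal minus buccal, with standard errors (SE), from edgeR's quasi-likelihood test over all 14062 tested genes. A gene was called higher or lower at a Benjamini-Hochberg adjusted p of 0.05. Processed pseudogenes of many of these short genes exist in the genome, and the way shared reads were counted is stated in none of the sources used here.

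Palatal and buccal epithelium differed by small amounts in these genes. In palatal epithelium, 13 of the 79 tested genes were lower (16.5%, against a background of 20.3% of all tested genes) and 2 were higher (2.53%, against 18.7%). In either direction 15 were called (19.0%), whereas 38.9% of all tested genes were. The 13 lower genes were Ndufa4, Ndufa9, Ndufv1, Ndufa10, Ndufs8, Ndufa11, Ndufs7, Cox6b1, Cox5b, Cox6a1, Atp5b, Atp5g1 and Atp5g3, and the 2 higher genes were Ndufa4l2 and Ndufb2. Without buccal 1, palatal 3 or palatal 5 the lower genes numbered 7 (backgrounds 18.8%, 17.7% and 18.3%). Without buccal 4 they numbered 8 (background 18.5%). Log2 fold changes of the tested subunit genes ran from -0.53 to 0.37. Their median was -0.07, beside 0.01 over all tested genes, and 59 of the 79 had a negative value (74.7%, background 48.5%). For 77 of the 79 genes (97.5%) the 95% interval of the difference lay within a fold of 1.5 either way, as it did for 60.3% of all tested genes. The exceptions were Ndufa4 and Uqcrh.

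Palatal libraries lay wholly below the buccal ones for 5 genes, Ndufa9, Ndufv1, Ndufa10, Ndufa11 and Atp5b (background 14.7%), and wholly above them for none (background 13.6%, or 28.3% in either direction).

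**Figure D1:**
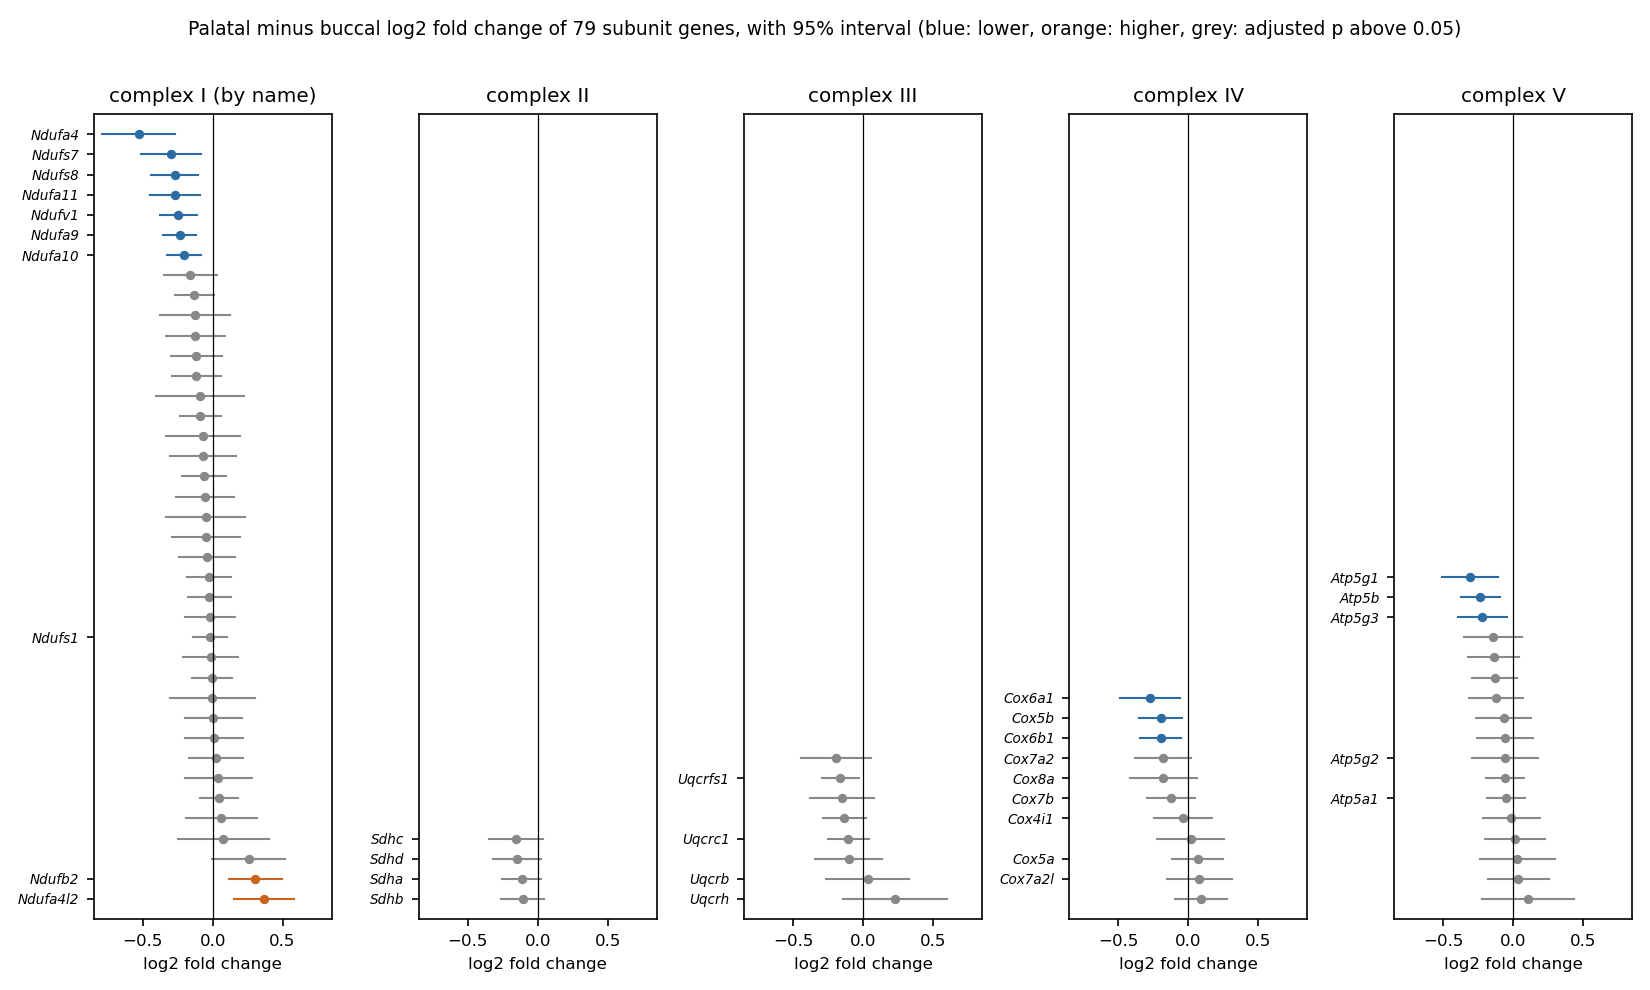
Log2 fold change (palatal minus buccal CPM, x axis) of the 79 tested subunit genes with 95% intervals, grouped by complex; coloured points are genes called at an adjusted p of 0.05, and called and central genes and isoform pairs, with a few others, carry their symbols. Most points lie left of 0 and close to it, and Ndufa4 at -0.53 and Ndufa4l2 at 0.37 mark the ends of the range.

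Complex I, the NADH dehydrogenase, held 9 of the 15 called genes, with 7 lower and 2 higher among 39 tested. That is 23.1% called and 17.9% lower, against 38.9% and 20.3% of all tested genes, and complex I also makes up 39 of the 79 tested subunit genes. The 2 genes at the ends of the range, Ndufa4 and Ndufa4l2, are counted here only through their names. The Ndufa4 protein is now known as a subunit of complex IV, and Ndufa4l2 is its paralog, known as a gene that is induced in low oxygen.

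Ndufa4 (ENSMUSG00000029632) measured 112.1, 109.1, 113.3, 122.4 and 104.8 CPM in buccal libraries 1 to 5 and 66.4, 78.7, 63.3, 108.9 and 72.4 CPM in palatal libraries 1 to 5. Palatal libraries 1, 2, 3 and 5 lay well below every buccal library, while palatal 4 reached the buccal range. Its mean was 30.7% lower on the palatal side (log2 fold change -0.53 ± 0.12 SE, 95% interval -0.79 to -0.27, adjusted p = 0.0033 by edgeR). Without palatal 4 the difference was -0.67.

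Ndufa4l2 (ENSMUSG00000040280) measured 146.2, 110.0, 105.7, 151.2 and 132.3 CPM in the buccal libraries and 186.0, 171.8, 163.7, 163.6 and 146.7 CPM in the palatal ones. Only palatal 5 lay within the buccal range. The palatal mean was 28.9% higher (0.37 ± 0.10 SE, 95% interval 0.15 to 0.58, adjusted p = 0.0101 by edgeR). Scaled to transcript length, the mean levels of Ndufa4 were 244.2 and 169.4 CPM per kilobase (buccal and palatal) and those of Ndufa4l2 were 138.2 and 178.1. So Ndufa4 stood well above Ndufa4l2 in buccal epithelium, and the means of both lay close together in palatal epithelium.

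Read as a ratio within each library, Ndufa4l2 CPM over Ndufa4 CPM was 1.15 ± 0.17 (SD, n = 5) in buccal and 2.22 ± 0.51 (SD, n = 5) in palatal epithelium. The buccal ratios were 1.30, 1.01, 0.93, 1.23 and 1.26, and the palatal ones 2.80, 2.18, 2.59, 1.5 and 2.03, with no overlap. A two-sided exact permutation test gave p = 0.00794, the smallest that 5 against 5 libraries allow, and 0.0132 after adjustment over the 5 isoform ratios tested. Both genes were already called in opposite directions in these same libraries, so the ratio restates those calls and is no separate support. For isoform pairs the design set a test per gene, and the ratio tests were added to it.

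**Figure D2:**
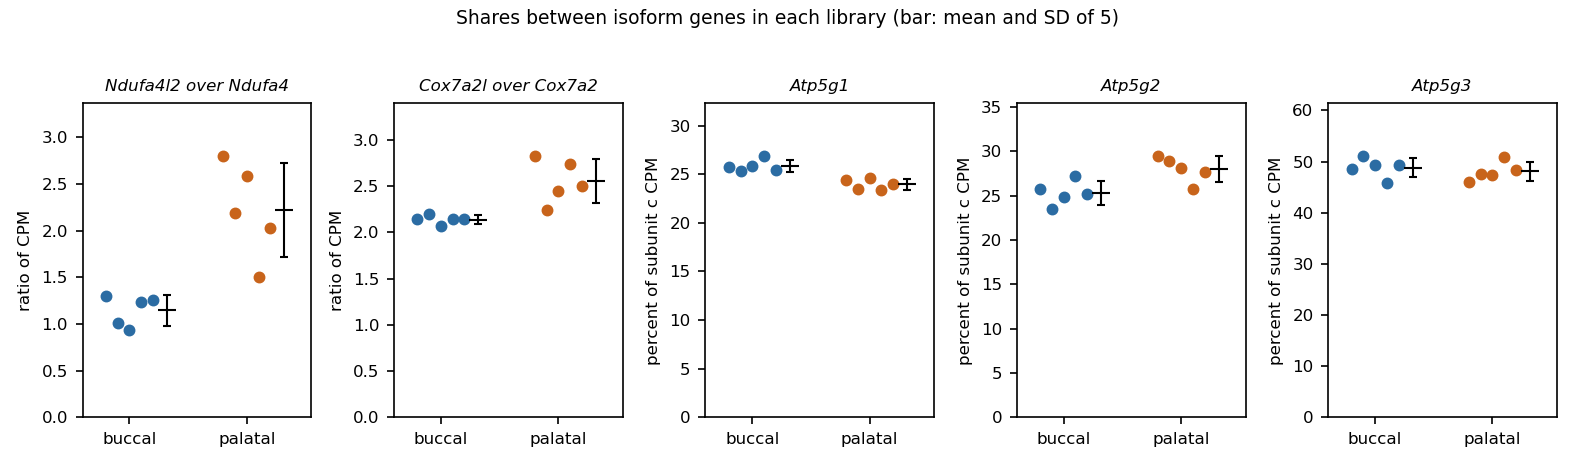
Ratios of CPM between isoform genes, and shares of the 3 genes of ATP synthase subunit c, in each library, with mean and SD of 5 per side. Ndufa4l2 over Ndufa4 lies between 0.93 and 1.30 in buccal and between 1.5 and 2.80 in palatal libraries.

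The nuclear-encoded core of complex I is a set of conserved subunits that carry electrons from NADH to the quinone, and Ndufv1, Ndufs8 and Ndufs7 of this core were lower. Ndufv1, which holds the flavin where NADH is oxidised, measured 76.5, 65.1, 69.6, 75.4 and 72.4 CPM in buccal and 59.9, 59.1, 63.5, 62.0 and 58.4 CPM in palatal libraries. The sides did not overlap (-0.25 ± 0.06 SE, adjusted p = 0.00477 by edgeR).

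Ndufs8 and Ndufs7 carry the iron-sulfur clusters nearest to the quinone. Ndufs8 measured 39.8, 34.1, 36.6, 38.4 and 34.8 CPM in buccal and 29.7, 31.3, 30.8, 34.5 and 25.8 CPM in palatal libraries. Only palatal 4 reached the buccal range (-0.27 ± 0.08 SE, adjusted p = 0.0122 by edgeR). Ndufs7 measured 24.0, 18.0, 21.5, 22.8 and 20.0 CPM in buccal and 18.1, 19.2, 17.4, 18.0 and 13.7 CPM in palatal libraries (-0.30 ± 0.10 SE, adjusted p = 0.0272 by edgeR). Its ranges overlapped through buccal 2. Ndufs1, the largest core subunit, measured 84.1 ± 4.4 CPM in buccal and 83.1 ± 2.2 CPM in palatal libraries (SD, n = 5), and the 95% interval of its log2 fold change was -0.14 to 0.10.

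Accessory subunits surround the core and are needed for its assembly and stability. Ndufa9, among them, sits at the junction of the matrix and membrane arms. It measured 59.7, 55.4, 57.8, 61.4 and 55.0 CPM in buccal and 48.6, 48.1, 50.2, 50.8 and 48.1 CPM in palatal libraries. The palatal libraries lay within a narrow range below all buccal ones (-0.24 ± 0.06 SE, adjusted p = 0.00366 by edgeR).

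Ndufa10 and Ndufa11 belong to the membrane arm. Ndufa10 measured 87.1, 81.8, 86.8, 87.3 and 80.3 CPM in buccal and 78.7, 71.7, 73.3, 74.6 and 69.6 CPM in palatal libraries (-0.20 ± 0.06 SE, adjusted p = 0.0111 by edgeR). Ndufa11 measured 26.6, 21.5, 22.1, 25.4 and 21.2 CPM in buccal and 19.9, 21.1, 18.1, 20.1 and 17.6 CPM in palatal libraries (-0.27 ± 0.08 SE, adjusted p = 0.0179 by edgeR). Neither gene overlapped between the sides, although for Ndufa11 the nearest libraries were only 21.2 and 21.1 CPM.

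Ndufb2, another membrane-arm subunit, was the remaining higher gene. It measured 5.76, 6.27, 7.35, 6.36 and 6.76 CPM in buccal and 8.38, 8.58, 7.81, 8.09 and 7.33 CPM in palatal libraries, overlapping only through buccal 3 and palatal 5 (0.31 ± 0.09 SE, adjusted p = 0.0133 by edgeR). Per kilobase it was the lowest tested subunit gene, at a mean of 3.01 CPM over all libraries.

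**Figure D3:**
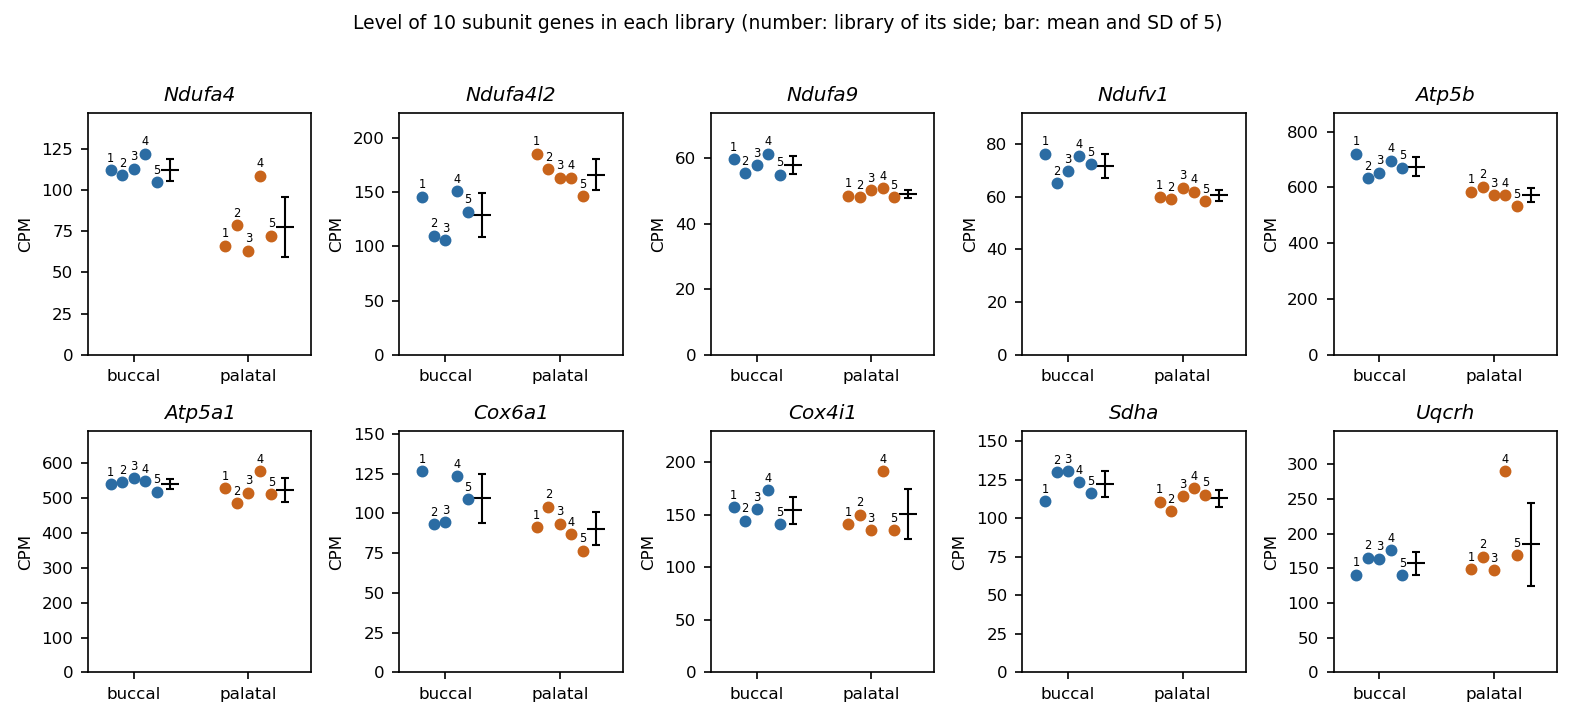
CPM of 10 named subunit genes in each library (y axis, from 0), numbered 1 to 5 within each side, with mean and SD of 5. The palatal libraries of Ndufa9, Ndufv1 and Atp5b lie below all buccal ones, and palatal 4 is the highest palatal library of Ndufa4 at 108.9 CPM and of Uqcrh at 289.7 CPM.

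Complex II, succinate dehydrogenase, is also an enzyme of the tricarboxylic acid cycle. None of its 4 genes was called by edgeR, and none had an unadjusted p below 0.05, although all 4 had negative fold changes with a median of -0.13. Sdha, the flavoprotein that oxidises succinate, measured 111.1, 129.9, 130.4, 123.3 and 116.3 CPM in buccal and 110.7, 104.7, 114.1, 119.3 and 115.2 CPM in palatal libraries. The sides overlapped, with a 95% interval of the log2 fold change from -0.25 to 0.02. Corresponding intervals were -0.26 to 0.05 for Sdhb, the iron-sulfur subunit, and -0.35 to 0.03 and -0.32 to 0.02 for Sdhc and Sdhd, the membrane anchors. Summed over the 4 genes, buccal libraries held 233.3 to 247.5 CPM and palatal libraries 209.4 to 230.0 CPM, so the sums did not overlap where the single genes did.

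Complex III, the cytochrome bc1 complex, likewise had no called gene among 8, with 1 at an unadjusted p below 0.05 by edgeR and 1 called lower by DESeq2 (background 16.0%). The median log2 fold change was -0.12. Uqcrfs1, the Rieske iron-sulfur protein, was that gene, at 63.5, 61.8, 61.9, 68.1 and 60.1 CPM in buccal and 53.5, 59.5, 56.3, 60.8 and 52.0 CPM in palatal libraries. Only palatal 4 exceeded the lowest buccal library, and the difference just missed the threshold (-0.16 ± 0.06 SE, adjusted p = 0.0567 by edgeR). It passed without palatal 4 (-0.18, adjusted p = 0.0385 by edgeR). Uqcrc1, a core protein of the complex, measured 152.5 ± 12.7 and 141.9 ± 6.9 CPM (SD, n = 5), with an interval of -0.25 to 0.04 on the log2 scale.

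Uqcrh, the hinge protein at the cytochrome c docking site, had the widest spread of all tested subunit genes. It measured 140.9, 165.3, 163.8, 176.2 and 139.7 CPM in buccal and 148.9, 166.9, 147.4, 289.7 and 169.2 CPM in palatal libraries. A single library, palatal 4, stood above all the others. The log2 fold change was 0.23 ± 0.17 SE (95% interval -0.14 to 0.60), and 0.01 without palatal 4. Per kilobase of transcript Uqcrh had the highest mean over all libraries, 360.0 CPM, ahead of Atp5b at 325.7 and Cox6b1 at 270.9. In buccal libraries alone Atp5b stood above it, at 352.0 against 331.2, and in palatal libraries Uqcrh was higher, at 388.7 against 299.3. The palatal mean and the mean over all libraries include the high palatal 4.

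In complex IV, cytochrome c oxidase, 3 of 11 tested genes were lower (27.3%, background 20.3%) and none was higher, with a median of -0.12. All 3 encode nuclear subunits around the catalytic core, which itself is made from mitochondrial DNA. Cox6b1, on the face toward cytochrome c, measured 146.6, 131.7, 136.7, 154.7 and 132.9 CPM in buccal and 122.9, 121.1, 118.1, 137.3 and 114.5 CPM in palatal libraries (-0.19 ± 0.07 SE, adjusted p = 0.0361 by edgeR). Cox5b measured 121.4, 119.4, 123.8, 128.3 and 105.1 CPM in buccal and 107.7, 98.1, 104.4, 115.7 and 95.9 CPM in palatal libraries (-0.20 ± 0.07 SE, adjusted p = 0.0404 by edgeR). The ranges overlapped through palatal 4 for Cox6b1 and through buccal 5 for Cox5b.

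Cox6a1 measured 126.4, 93.4, 94.6, 123.4 and 109.0 CPM in buccal and 91.2, 104.2, 93.5, 86.9 and 76.4 CPM in palatal libraries (-0.27 ± 0.10 SE, adjusted p = 0.0432 by edgeR). Buccal 2 and 3 lay among the palatal libraries. Without buccal 1, buccal 4, palatal 1, palatal 3 or palatal 5, none of the complex IV genes was called (backgrounds of lower calls 18.8%, 18.5%, 18.0%, 17.7% and 18.3%). Without buccal 3 or palatal 2 just 1 was (18.3% and 19.2%). The log2 fold changes themselves moved less, over -0.24 to -0.16 for Cox5b, -0.33 to -0.21 for Cox6a1 and -0.23 to -0.16 for Cox6b1 when each library was left out in turn. These 3 calls lie near the threshold, and each was lost on leaving out any of 7 or 8 different libraries. Cox4i1, an early building block of the complex, measured 154.4 ± 12.9 and 150.7 ± 23.6 CPM (SD, n = 5), with a 95% interval of -0.24 to 0.17 on the log2 scale. For Cox5a, another such early subunit, the interval was -0.11 to 0.25.

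The muscle, testis and lung forms of complex IV subunits were at or near 0 in every library. Raw counts of Cox6a2 and Cox7a1, the heart and skeletal muscle forms, were at most 9 and 7 in a library, and those of Cox8b at most 2. Cox4i2, the lung form of subunit 4, had at most 4 counts, and Cox6b2, a testis form, at most 8. Cox7b2 and Cox8c were at 0 in all 10 libraries, and Cox6c2 had 1 count in 1 library. The widely expressed forms measured between 59.7 and 154.4 CPM on average on either side. The intervals of the log2 fold change were -0.42 to 0.06 for Cox8a and -0.29 to 0.05 for Cox7b.

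Cox7a2 and Cox7a2l are related genes with different roles. Cox7a2 encodes a subunit of the free enzyme, and Cox7a2l a protein that links complexes III and IV into a supercomplex. Cox7a2 measured 67.5 ± 6.8 CPM in buccal and 59.7 ± 8.0 CPM in palatal libraries (SD, n = 5; log2 fold change -0.18 ± 0.09 SE, adjusted p = 0.15 by edgeR). Without palatal 4 it was called lower (-0.26, adjusted p = 0.0222 by edgeR). For Cox7a2l the corresponding means were 144.3 ± 14.4 and 152.6 ± 27.7 CPM. Neither gene was called alone, yet their ratio within a library separated the sides. Cox7a2l over Cox7a2 averaged 2.14 ± 0.05 (SD, n = 5) on the buccal side against 2.55 ± 0.24 (SD, n = 5) on the palatal side. The two-sided exact permutation test gave p = 0.00794, or 0.0132 adjusted over the 5 ratios. The buccal ratios lay between 2.07 and 2.20, and the palatal ones between 2.24 and 2.83.

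Complex V, the ATP synthase, had 3 lower (17.6%, background 20.3%) and no higher genes among 17 tested, with a median of -0.06. Atp5b, the catalytic beta subunit of the F1 head, measured 721.7, 632.1, 652.5, 695.6 and 670.7 CPM in buccal and 584.7, 602.8, 572.8, 573.0 and 533.8 CPM in palatal libraries. No library overlapped, and the mean was 15.0% lower on the palatal side (-0.23 ± 0.07 SE, 95% interval -0.37 to -0.09, adjusted p = 0.0104 by edgeR). Its partner in the F1 head, the alpha subunit gene Atp5a1, measured 541.0 ± 14.3 and 522.2 ± 33.8 CPM (SD, n = 5), with a 95% interval of -0.19 to 0.09. Their ratio, Atp5b over Atp5a1, was 1.25 ± 0.08 in buccal and 1.10 ± 0.09 (SD, n = 5) in palatal libraries. It was chosen after its values were seen and carries no test.

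The ring of subunit c that turns in the membrane is encoded by 3 genes, Atp5g1, Atp5g2 and Atp5g3, which yield the same mature protein. Atp5g1 measured 47.3, 34.5, 35.4, 44.6 and 38.3 CPM in buccal and 33.8, 34.5, 32.9, 31.7 and 28.2 CPM in palatal libraries, with buccal 2 and palatal 2 meeting at the same rounded level (-0.31 ± 0.09 SE, adjusted p = 0.0157 by edgeR). Atp5g3 measured 89.0, 69.8, 67.7, 76.0 and 74.3 CPM in buccal and 64.0, 70.0, 63.4, 69.2 and 57.0 CPM in palatal libraries (-0.22 ± 0.08 SE, adjusted p = 0.0446 by edgeR). For Atp5g2 the 95% interval was -0.29 to 0.18.

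Within the subunit c transcripts, Atp5g1 held 25.8% ± 0.6 on the buccal side and 23.9% ± 0.5 on the palatal side (SD, n = 5). By the two-sided exact permutation test p was 0.00794, or 0.0132 adjusted over the 5 ratios. Atp5g2 held 25.3% ± 1.3 and 28.0% ± 1.5 (SD, n = 5; exact permutation p = 0.0238, 0.0298 adjusted). Atp5g3 held 48.8% ± 1.9 and 48.1% ± 1.8 (SD, n = 5; exact permutation p = 0.516). These shares make up a whole, so their tests are not independent of one another. Atpif1, the gene of the inhibitor that stops the ATP synthase from running backwards and no member of the chosen set, measured 103.3 and 121.7 CPM on average, with an interval of -0.01 to 0.49 on the log2 scale.

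Added up, the subunit genes made up 6291 ± 314 CPM of a buccal and 5942 ± 501 CPM of a palatal library (SD, n = 5). The buccal sums were 6448, 6088, 6213, 6751 and 5957 CPM and the palatal ones 5759, 5865, 5736, 6813 and 5539 CPM. Palatal 4 had the highest sum of all 10 libraries, while the other 4 palatal libraries lay below every buccal one, at 5725 ± 136 CPM. By complex, the mean sums were 1817 and 1749 CPM for complex I (buccal and palatal), 752.6 and 738.2 for complex III, 1110 and 1047 for complex IV, and 2370 and 2187 for complex V. In bulk tissue, fewer cells of a type and less RNA per cell cannot be told apart.

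The mitochondrially encoded subunit genes, read from the same polyadenylated RNA, summed to 43134 ± 10748 CPM in buccal and 51753 ± 15005 CPM in palatal libraries (SD, n = 5). Of the 12 tested, none was called by edgeR and 1 had an unadjusted p below 0.05. Their median log2 fold change was 0.30, opposite in sign to the nuclear median of -0.07. These genes were counted very unequally. In buccal libraries mt-Nd3, mt-Co2 and mt-Atp6 averaged 1.24, 2.14 and 2.88 CPM, against 12379 for mt-Co1 and 9220 for mt-Cytb. Mt-Co3 was also far below mt-Co1 on both sides. The sum therefore rests on the abundant transcripts, while the median gives the scarce ones equal weight. Why some were so scarce was not tested. The mitochondrial sums were highest in palatal 5, at 72810 CPM, the library with the lowest nuclear sum. On the buccal side it was otherwise. Buccal 5 had the lowest buccal nuclear sum and a mitochondrial sum of 33982 CPM, near the buccal minimum of 31285. Palatal 4, with the highest nuclear sum, had a mitochondrial sum of 54426 CPM. How the sums relate across libraries was not tested.

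**Figure D4:**
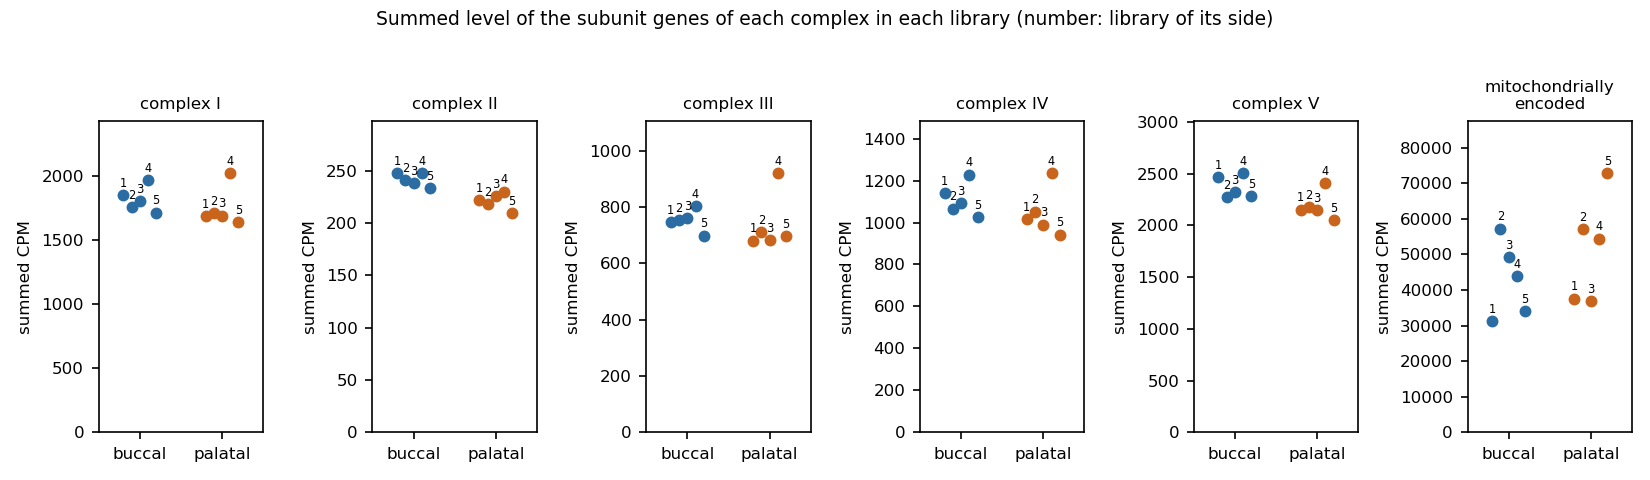
Summed CPM of the subunit genes of each complex, and of the mitochondrially encoded subunits, in each library; numbers mark the library of its side, and each y axis starts at 0. Palatal 4 lies above the other palatal libraries in all 5 complexes, and complex II is the only one whose sums do not overlap between the sides.

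The libraries differed in a way that the sides do not describe. Palatal 4, which also had the fewest reads, was the highest palatal library for 55 of the 79 genes (69.6%, against 23.4% of all tested genes). The median subunit gene lay 0.22 above the mean of the other palatal libraries there on the log2 scale, and the median of all tested genes -0.01. Buccal 4 was likewise the highest buccal library for 40 of the 79, with a median of 0.14. In palatal 5 the median was -0.14. Short genes as a whole shifted the same way in these libraries, though less far. The subunit genes are short, with a median transcript length of 747.5 bases against 2616 over all tested genes. In palatal 4 the 1376 tested genes with transcripts under 1000 bases, of which 53 are subunit genes, lay 0.18 above the other palatal libraries at the median, and the 1841 with transcripts over 5000 bases -0.03. In buccal 4 these medians were 0.12 and -0.07, and in palatal 5 they were -0.09 and 0.08. Subunit genes of both length classes were shifted. In palatal 4 the 53 under 1000 bases lay 0.30 above the other palatal libraries and the 26 longer ones 0.16 above them, with 16 of the 26 highest there. In buccal 4 these medians were 0.17 and 0.11, with 13 of the 26 highest. In both libraries the longer subunit genes were raised as well, and the short ones were raised by more than short genes in general. The part of transcript length in these shifts was not tested.

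**Figure D5:**
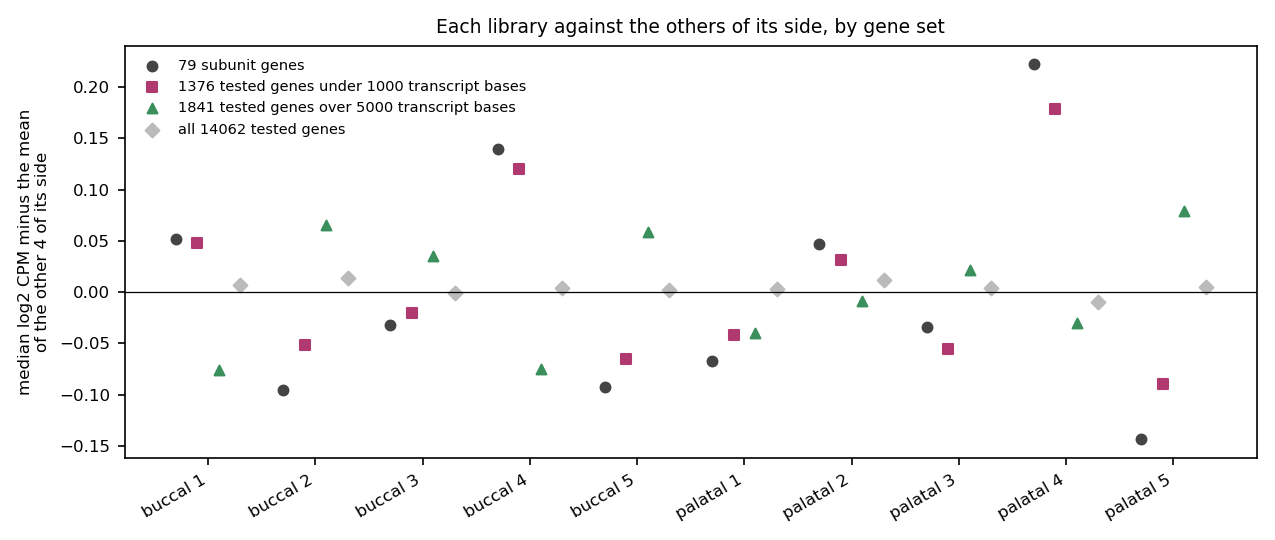
Median log2 CPM of each library minus the mean of the other 4 of its side, for the subunit genes, for short and long genes and for all tested genes. Subunit genes and genes under 1000 transcript bases lie on the same side of 0 in all 10 libraries, furthest from it in palatal 4 at 0.22 and 0.18.

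Between the sides, the 53 subunit genes with transcripts under 1000 bases had a median log2 fold change of -0.06. Of these, 8 were lower and 1 higher (15.1% and 1.89%, against 18.4% and 13.0% of all tested genes under 1000 bases). The 26 longer ones had a median of -0.12. Among them 5 were lower and 1 higher (19.2% and 3.85%, against 20.3% and 18.7% of all tested genes). Negative values were found for 24 of the 26 (92.3%, against 48.5% of all tested genes). All tested genes under 1000 bases had a median of 0.00. Without palatal 4, 17 subunit genes were lower (background 19.2%) and 2 higher, with a median of -0.13, against 13, 2 and -0.07 with it. Both length limits were set after the values were seen, and the part of length in the difference between the sides was not tested.

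Genes around the complexes were read from lists of known function, and each count stands against 20.3% lower and 18.7% higher over all tested genes. Among the electron carriers and further entry points to the chain, 8 of 22 tested were lower and none higher in palatal epithelium. They included Gpd2, which feeds electrons from glycerol phosphate (58.2 to 37.9 CPM, log2 fold change -0.62), Sqor, which oxidises sulfide (13.5 to 7.0 CPM, -0.95), and Coq8a of coenzyme Q synthesis (-0.85). Cycs, the cytochrome c gene, had an interval of -0.35 to 0.04.

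In the tricarboxylic acid cycle and pyruvate entry, 7 of 25 tested genes were lower and 2 higher. Pdk4, a kinase that shuts pyruvate dehydrogenase, was lower by the largest amount (15.9 to 4.1 CPM, -1.95), followed among the named genes by Pcx, pyruvate carboxylase (-0.85). Idh3a, a subunit of isocitrate dehydrogenase, was higher (0.32). RNA of Cs, the citrate synthase gene, was lower (276.3 to 219.1 CPM, -0.33, adjusted p = 0.00117 by edgeR), and its libraries did not overlap. Mitochondrial content itself was not measured.

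Factors that assemble the complexes moved little and in both directions. For complex I, 2 of 16 were higher, Acad9 (0.31) and Ndufaf4 (0.29), and none was lower. For complexes II, III and V, 1 of 15 was higher, Atpaf1 (0.33), and 3 were lower, among them Sdhaf1 (-0.31) and Bcs1l (-0.32), which inserts the Rieske protein. For complex IV, 2 of 23 were higher and 2 lower, with Coa7 at 0.47, Coa3 at -0.26 and Coa8 at 0.27. In the list of supercomplex and isoform factors, Higd1a, which binds complex IV and is known to be induced in low oxygen, was lower (119.3 to 81.5 CPM, -0.55). Hif1a, the low-oxygen transcription factor, was higher (241.3 to 309.8 CPM, 0.36). Ndufa4l2 and Higd1a, both known as low-oxygen genes, thus differed in opposite directions.

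Among regulators of mitochondrial biogenesis, 2 of 20 tested were lower and 1 higher. Ppara, a nuclear receptor of fatty acid oxidation, was lower (6.5 to 1.8 CPM, -1.83), as was Ppargc1a, the coactivator PGC-1 alpha, at low level (3.2 to 2.2 CPM, -0.55). Mterf3 was higher (0.26). The factors whose binding sequences were searched, and Tfam, which packs and transcribes mitochondrial DNA, were not called. Their log2 fold changes were 0.02 for Nrf1, 0.05 for Gabpa, -0.04 for Esrra, -0.04 for Yy1 and 0.02 for Tfam.

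Among carriers of ADP, phosphate and protons 1 of 7 was lower, the outer membrane channel gene Vdac1 (-0.26), and in protein import 3 of 16 were lower, Hspa9 (-0.22), Phb2 (-0.19) and Timm50 (-0.23). The mitochondrial ribosomal proteins had 12 lower and 4 higher genes among 77. Mrpl15 (-0.56) and Mrps6 (-0.61) were lower and Mrps33 (0.60) was higher. Their median of -0.08 was close to that of the subunit genes.

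The labelled tissue was checked against marker genes. All 10 keratinocyte markers were present, summing to 132719 to 152262 CPM in buccal and 114829 to 124822 CPM in palatal libraries, with 4 genes higher and 3 lower on the palatal side. Krt76 and Krt14 were among the higher and Krt4 and Krt13 among the lower. Leukocyte markers were lower in palatal epithelium for 7 of 8 tested, summing to 139.6 to 252.4 CPM in buccal and 46.2 to 71.0 CPM in palatal libraries. Skeletal muscle markers, from a tissue rich in mitochondria, were lower for 5 of 10 tested, at sums of 9.6 to 21.5 and 8.0 to 13.1 CPM. Fibroblast markers summed to 38.2 to 59.2 and 80.6 to 99.5 CPM, with 2 higher and 1 lower of 6. Most of the palatal sum was Dcn (6.6 to 73.3 CPM), and Fbn1 was higher at low level (0.23 to 1.77 CPM). Vim was lower (32.7 to 8.5 CPM), and Col1a1, Col1a2 and Col3a1 were not called. The brown adipocyte list, which also holds Cox8b, had 1 lower of 2 tested, Cidea (20.2 to 9.0 CPM). Minor salivary gland markers had 2 higher of 2 tested at sums of at most 6.4 CPM, endothelial and mural markers 2 lower of 5, and melanocyte and Schwann markers and erythroid markers no call among 1 and 5. Some of these markers differed between the sides and others did not, and their part in the subunit differences was not tested.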

How the data were processed

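Polyadenylated RNA of 10 libraries (5 buccal, 5 palatal) was read as raw counts per gene, deposited by the authors with a further set of normalized values, a signal that equals each deposited count divided by 1 size factor per library (columns named for DESeq2, per the file headers). Per the submitters' processing notes, which assign no roles, the build was GRCm39 and the tools were HTSeq 2.01, TopHat2 2.1.1, DESeq2 1.36.0 and cutadapt 2.10. Of 55414 genes, 6250 were blank. filterByExpr (minimum count 10) kept 14062 of 49164 genes. Counts were fitted in edgeR 4.0.16 (R 4.3.3; TMM, robust quasi-likelihood F-test, side as the only term, two-sided), with Benjamini-Hochberg adjustment over all tested genes. Alternatives used limma 3.58.1, DESeq2 1.42.0, other scalings, filters and thresholds, a replicate block and each library left out. Leaving out the libraries numbered 2, or 4, of both sides was chosen after seeing the data. The subunit genes and lists were chosen with earlier results of these data known. No columns belonged to other samples (0).

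Genes named by rule were, for each complex, up to 5 called genes with the smallest p in each direction, the central subunits, isoform pairs, Atpif1, and up to 3 called genes of each pathway list. Ndufa11, Ndufs7, Uqcrh, Sdhc, Sdhd and the further genes named without being called were chosen after their values were seen. Cs was also named outside this rule. Transcript length is the median over a gene's protein-coding transcripts in the GENCODE M21 basic annotation, available for 99.8% of tested genes. The scripts were tested on simulated data. Promoter coordinates are of GRCm38.p6, not of the counting build. A summary of part of complex I is not reported here.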

Additional observations from a re-analysis of the deposited data

Results flagged for a closer look

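In 76 groups of 5 libraries, the gap between an extreme library and its nearest neighbour was compared with the range of its side by Dixon's test. The gap was too wide in 6 groups, 5 of them through palatal 4, where chance marks about 5% of groups. In palatal 4, Uqcrh reached 289.7 CPM and Cox7a2l 200.8 CPM. The summed CPM there was 6813 over all subunit genes, 2020 over complex I and 920.1 over complex III. In buccal 4, Cox7b reached 100.8 CPM. Each of these was the highest library of its side, and the sums share genes with one another.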

How the results depend on the processing

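No fold change of a called gene changed sign under the 24 alternatives. The median log2 fold change of the subunit genes stayed between -0.13 and -0.04 when 1 library was left out. Ndufa4 kept its call under all 24, and Ndufa9 and Ndufv1 lost theirs only in the test against a fold of 1.2. Cox5b, Cox6a1, Atp5g3, Cox6b1, Ndufs7 and Ndufa11 lost theirs under 13, 12, 11, 10, 8 and 6. At an adjusted p of 0.01, which 27.2% of all tested genes passed (14.3% lower), 0 subunit genes were higher and 3 lower, with complex I at 0 and 3 and complexes IV and V at 0 lower. Tested against a fold of 1.2, 3036 of all genes passed (21.6%, 11.7% lower), with 0 subunit genes higher and 1 lower, complex I at 0 and 1, and complexes IV and V at 0 lower. Scaling by library totals gave 1 lower gene in complex II and 2 in complex III. With it 23.2% of all tested genes were lower, against 20.3% in the main fit. Without a filter complex IV had 1 lower gene (background 9.77%), and DESeq2 gave 1 in complex III (background 16.0%). Leaving out 1 library gave 4916 to 5399 called genes of all, 2 to 3 subunit genes higher and 7 to 17 lower, with complex III at 0 to 1 and complex IV at 0 to 3 lower. The count of 7 came without buccal 1, palatal 3 or palatal 5 (backgrounds 18.8%, 17.7% and 18.3%), and 8 without buccal 4 (18.5%). Without the libraries numbered 2 of both sides 1 gene, in complex I, was higher (background 37.7% called in either direction). Without those numbered 4 complex V had 1 lower (background 17.8%). The causes were not tested. Whether same-numbered libraries of the sides belong together is not stated, and the main fit treated them as unpaired. Deviations of same-numbered libraries correlated at 0.33, 0.06, -0.02, 0.20 and 0.06. Those of differently numbered libraries correlated at -0.32 to 0.23. These values do not decide whether the libraries are paired. The fit with a replicate block gave 2 higher and 12 lower subunit genes, 1 of them in complex III. Of all tested genes it called 5518 (39.2%, 20.4% lower). For genes at a few counts per library, such as the muscle forms, this depth shows no difference either way.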
